A study of Arabidopsis thaliana with 2 samples.

Results

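The regions described here are places next to Arabidopsis thaliana genes where both measured protein complexes had a peak. They were chosen by their position and overlap: rows of the SEP3Δtet3M-AG list that share at least 1 bp with a row of the SEP3Δtet-AGΔtet list, with a midpoint outside every protein-coding gene but no more than 1000 bp from the start or end of one. There were 365 such peaks among the 1681 of the SEP3Δtet3M-AG list (21.7%, exact 95% interval 19.8 to 23.8). They made up 32.1% of its 1137 peaks found in both lists and 72.0% of its 507 peaks in gene flanks. The 2277 peaks of the SEP3Δtet-AGΔtet list included 798 in gene flanks, of which 364 were found in both lists (45.6%, interval 42.1 to 49.1). Because overlap and location chose the peaks, these numbers describe the choice and are not tested.

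The study used sequential DNA affinity purification sequencing, in which protein complexes made outside the plant are incubated with fragmented genomic DNA and the DNA that stays bound is sequenced. The DNA of both samples came from untreated seedlings 2 weeks old. Each sample is 1 complex of SEPALLATA3 (SEP3) and AGAMOUS (AG), and the series calls both tetramerization mutants: SEP3Δtet3M-AG is named for a change in SEP3 and SEP3Δtet-AGΔtet for a change in each partner. The genotype label of both samples reads the same, so the groups follow the titles. The unaltered SEP3-AG complex and an earlier mutant, against which the study set them, were not analysed here. Naked genomic DNA carries no chromatin, and a peak therefore says nothing about whether the site is open in a flower.

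Both proteins belong to the MADS-domain transcription factors, which bind DNA as dimers at short AT-rich elements known as CArG boxes. When dimers meet they can form a tetramer, which then contacts several such elements at once with the DNA between them looped. AG specifies stamens and carpels and ends the activity of the floral meristem, and SEP3 is its partner in the whorls of stamens and carpels. Promoters and other sequence beside genes are where such factors are usually studied. The flanking genes below are given with what each is known to do, as background.

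Each file holds only a chromosome, a start and an end per peak, and every peak is 400 bp wide. There is no score, fold or read number, so the depth is unknown, each peak can only be scored as listed or not, and the midpoint is used as its position. With 1 list per complex there is no replicate error. Intervals are exact Clopper-Pearson intervals at 95%, they reflect only how many peaks or genes were counted, and no difference between the complexes was tested. The genome build of the peak files is not given in the sources used here, and genes come from the RefSeq table of TAIR10.1, so distances rest on the fit between them. As deposited, 32.1% of the peaks found in both lists lay in gene flanks. With all peaks moved together by 2000 to 20000 bp in either direction, 20.1 to 23.3% did. The share inside genes was 51.5% as deposited and 58.6 to 61% after the moves, and that farther from genes 16.4% and 16.4 to 20.2%. An offset of less than 2000 bp was not tried, so the moves do not check the distances given here. Location is also part of the rule that chose the peaks described, so no preference for flanks is read from these shares. The gene table has no strand, so the upstream and downstream sides of a gene cannot be told apart here, and no sequence of these regions was used.

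Most of the 365 peaks lay close to their gene. The median distance from the midpoint to the nearest protein-coding gene was 251 bp, and the middle of the distribution ran from 115 to 503 bp (quartiles). Within 100 bp of a gene lay 80 peaks (21.9%), and within 200 bp lay 153 (41.9%, interval 36.8 to 47.2). Since a peak reaches 200 bp to each side of its midpoint, those 153 peaks extended to a gene. Over 500 bp away lay 93 (25.5%). For comparison, every base of the genome that meets the same rule of location was counted: 31.8% of the 24306164 flank bases lie within 200 bp of a gene, 35.1% lie over 500 bp away, and their median distance is 351 bp. Flank peaks found with 1 complex only had medians of 232 bp (SEP3Δtet3M-AG, 142 peaks) and 304 bp (SEP3Δtet-AGΔtet, 434 peaks). Within 100 bp lay 32.4% of the former and 17.5% of the latter, beside 17.4% of all flank bases. These shares are set side by side and were not tested, since peaks of 1 list share a library.

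**Figure D1:**
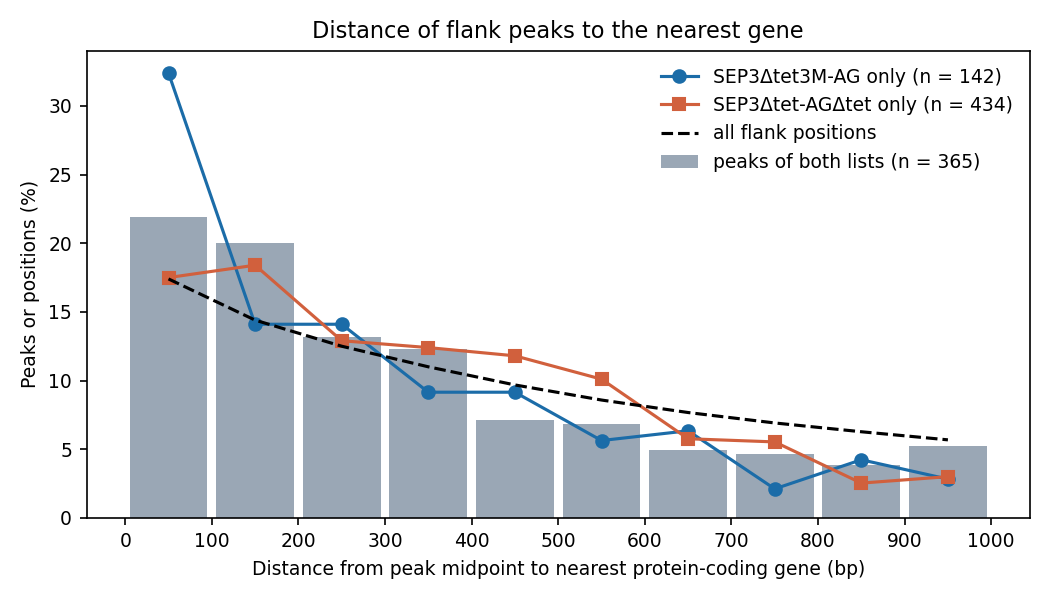
Share of flank peaks (y, percent) by distance from the midpoint to the nearest protein-coding gene (x, bp, in bins of 100 bp). Bars are the 365 peaks found in both lists, lines are flank peaks of 1 list only, and the dashed line is every flank base. The first bin holds 21.9% of the peaks of both lists, 32.4% and 17.5% of those of 1 list, and 17.4% of bases.

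The peaks nearest to a gene lay at its very edge. The closest, 3 bp from FZR2, a regulator of the anaphase-promoting complex in the endocycle, spanned chromosome 4, 12012205 to 12012604 with SEP3Δtet3M-AG and 12012196 to 12012595 with SEP3Δtet-AGΔtet. The next lay 4 bp from MPK18, a mitogen-activated protein kinase, 10 bp from AT5G64790, 13 bp from BRM and 14 bp from AT4G27810. BRM encodes BRAHMA, an ATPase of a chromatin remodelling complex with roles in flower development, and its peak had the same coordinates in both lists, chromosome 2, 18922320 to 18922719. At the other end of the rule, AT1G19260 lay exactly 1000 bp from its peak, AGL92 998 bp, AT3G43837 991 bp, AT5G38540 976 bp and the potassium transporter gene KUP11 970 bp. The first peaks left outside were at 1002 bp, from ABCC1 and CYP76G1, and at 1010 bp, from AT5G06060.

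A single protein-coding gene was in reach of 234 of the 365 peaks, 2 genes of 124, and 3 genes of 7. In all, 497 of 27444 protein-coding genes lay within 1000 bp of such a peak, which is 1.81% and is the background for the families below. The nearest genes numbered 363, or 1.32%. Genes on both sides were in reach for 125 peaks (34.2%, interval 29.4 to 39.4), beside 29.8% of all flank bases. The space between the neighbouring genes had a median of 1983 bp, and it was at most 1000 bp for 95 peaks (26.0%), beside 19.3% of flank bases. The shortest spaces were narrower than the peak itself: 67 bp between QC and AT4G25730, 80 bp between AT4G27810 and TAP38, 108 bp between AT2G23060 and NPY4, 140 bp between AT2G37000 and NAP12, and 152 bp between AT5G50020 and AT5G50030. In such places the peak extends into both genes. The genes in reach had a median length of 2096 bp against 2078 bp over all protein-coding genes.

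The 2 complexes had their peaks at almost the same spot, where the rule alone asks only for a distance under 400 bp. The median distance between the midpoints of the lists was 8 bp (quartiles 4 and 15), 312 of 365 lay within 20 bp (85.5%, interval 81.4 to 88.9), and 7 had the same midpoint. The SEP3Δtet-AGΔtet midpoint lay to the left of the other in 187 cases and to the right in 171. Shared peaks inside genes had a median of 9 bp (585 peaks) and those farther from genes 8 bp (187 peaks). In the SEP3Δtet-AGΔtet list 360 of the partner peaks fell in a gene flank too, 3 inside a gene and 2 farther than 1000 bp away.

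**Figure D2:**
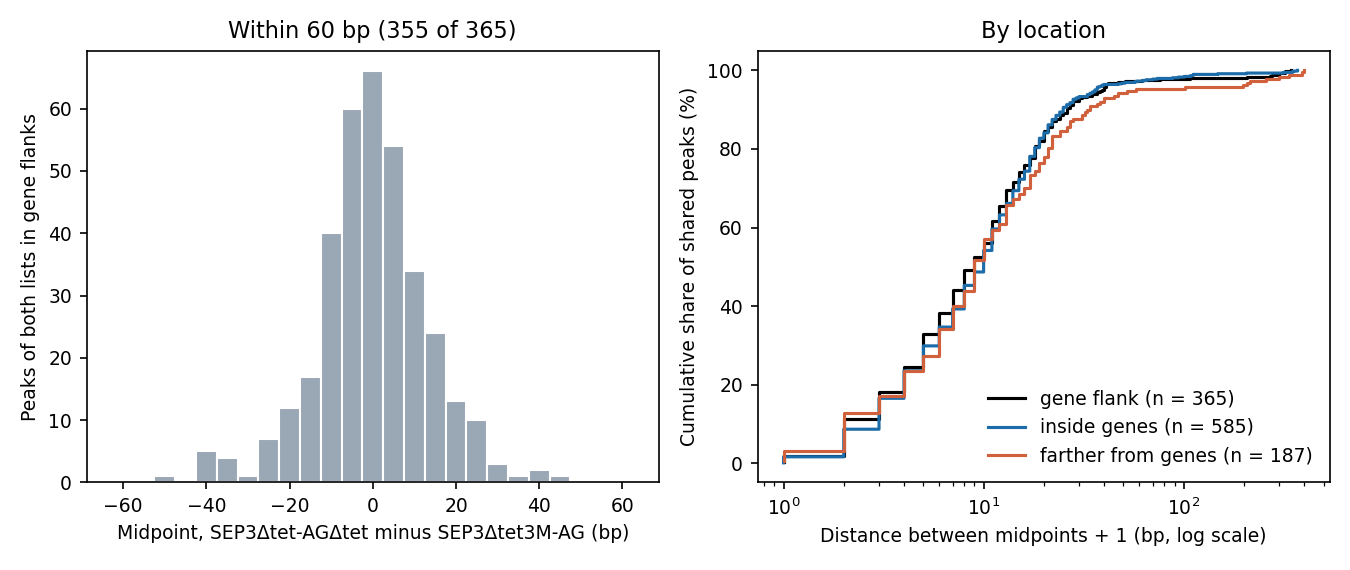
Left, number of peaks of both lists in gene flanks (y) by the midpoint of the SEP3Δtet-AGΔtet peak minus that of the SEP3Δtet3M-AG peak (x, bp); the peaks within 60 bp are drawn. Right, cumulative share of shared peaks (y, percent) by the distance between midpoints plus 1 (x, bp, log scale), for those in gene flanks, inside genes and farther away, whose medians are 8, 9 and 8 bp.

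In 8 of the 365 the midpoints lay over 100 bp apart. The widest was at NF-YB13, a histone-fold subunit of the trimeric factor NF-Y: chromosome 5, 7750558 to 7750957 with SEP3Δtet3M-AG and 7750899 to 7751298 with SEP3Δtet-AGΔtet, so that 59 bp were in common. At AT4G09100 the midpoints lay 321 bp apart, at AT3G12977 and AT3G29455 299 bp, at AT1G73390 274 bp, at AT2G26940 268 bp, at CF9 207 bp and at UGT73B2 106 bp. Both of the 2 peaks next to AT3G29455 overlapped 1 SEP3Δtet-AGΔtet peak. Conversely, the peak next to AT4G19440 (chromosome 4, 10604973 to 10605372) was the only 1 of the 365 to overlap 2 SEP3Δtet-AGΔtet peaks.

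MADS-box genes were the largest group of named transcription factor genes beside these peaks. Of 106 genes with a MADS-box name, 11 lay within 1000 bp of one (10.4%, interval 5.30 to 17.8), beside the 1.81% of all protein-coding genes, and each of the 11 was the gene nearest to its peak. In the list of 39 MIKC-type genes, the class that holds the floral organ and flowering regulators, there were 4 (10.3%, interval 2.87 to 24.2): SHP2, SOC1, AGL19 and AGL21. The other 67 MADS-box genes by name, mostly of type I, held 7 (10.4%, interval 4.30 to 20.3): AGL38, AGL55, AGL57, AGL86, AGL91, AGL92 and AGL97. Type I genes are known mainly from the female gametophyte and endosperm, and their share stood next to that of the flower and flowering regulators.

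Among the MIKC-type genes, SHP2, a regulator of carpel margins, ovules and fruit opening, had a peak at chromosome 2, 17819662 to 17820061 with SEP3Δtet3M-AG and 17819653 to 17820052 with SEP3Δtet-AGΔtet, 252 bp from the gene. SOC1, which the gene table calls AGL20 and which integrates flowering signals, had peaks at chromosome 2, 18810952 to 18811351 and 18810945 to 18811344, in the same order, 27 bp from the gene. The peaks of AGL19, an activator of flowering after cold, lay as close, 23 bp from the gene, at chromosome 4, 12027827 to 12028226 and 12027825 to 12028224. Of the 11 genes, AGL19 was the only 1 that also had a peak inside it, in both lists. AGL21, expressed in roots and known for lateral root growth, had peaks 645 bp from the gene, at chromosome 4, 17839414 to 17839813 and 17839376 to 17839775, and their midpoints, 38 bp apart, were the farthest apart of the 11.

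The type I genes had peaks at more varied distances. AGL55 had one 119 bp away, at chromosome 1, 22430280 to 22430679 with SEP3Δtet3M-AG and 22430276 to 22430675 with SEP3Δtet-AGΔtet, in a space of 485 bp that ends at RECQ4B, a DNA helicase gene. The peak of AGL91 lay 144 bp away (chromosome 3, 2091742 to 2092141 with SEP3Δtet3M-AG, midpoints 11 bp apart), and that of AGL97 233 bp away (chromosome 1, 17232984 to 17233383, 7 bp apart). All of these sit closer than the median of 251 bp. AGL57 followed at 335 bp (chromosome 3, 1076057 to 1076456, midpoints 11 bp apart) and AGL38 at 511 bp (chromosome 1, 24254218 to 24254617, 8 bp apart). AGL86 and AGL92, which are neighbouring MADS-box genes on chromosome 1, each had a peak at higher coordinates than the gene, 887 and 998 bp away, with midpoints 4740 bp from each other. Those at AGL86 spanned 11320234 to 11320633 with SEP3Δtet3M-AG and 11320237 to 11320636 with SEP3Δtet-AGΔtet, and those at AGL92 11324974 to 11325373 and 11324969 to 11325368.

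Flank peaks of 1 list only also lay beside MADS-box genes. With SEP3Δtet-AGΔtet only there were 8 of 106 (7.55%, beside 2.1% of all protein-coding genes in reach of such a peak): AGL14, AGL15, TT16, AGL82, AGL83, AGL99, AGL102 and AGL103. With SEP3Δtet3M-AG only there was 1, SEP4 (0.943%, beside 0.714% of all genes). No test was made of a difference between these shares.

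**Figure D3:**
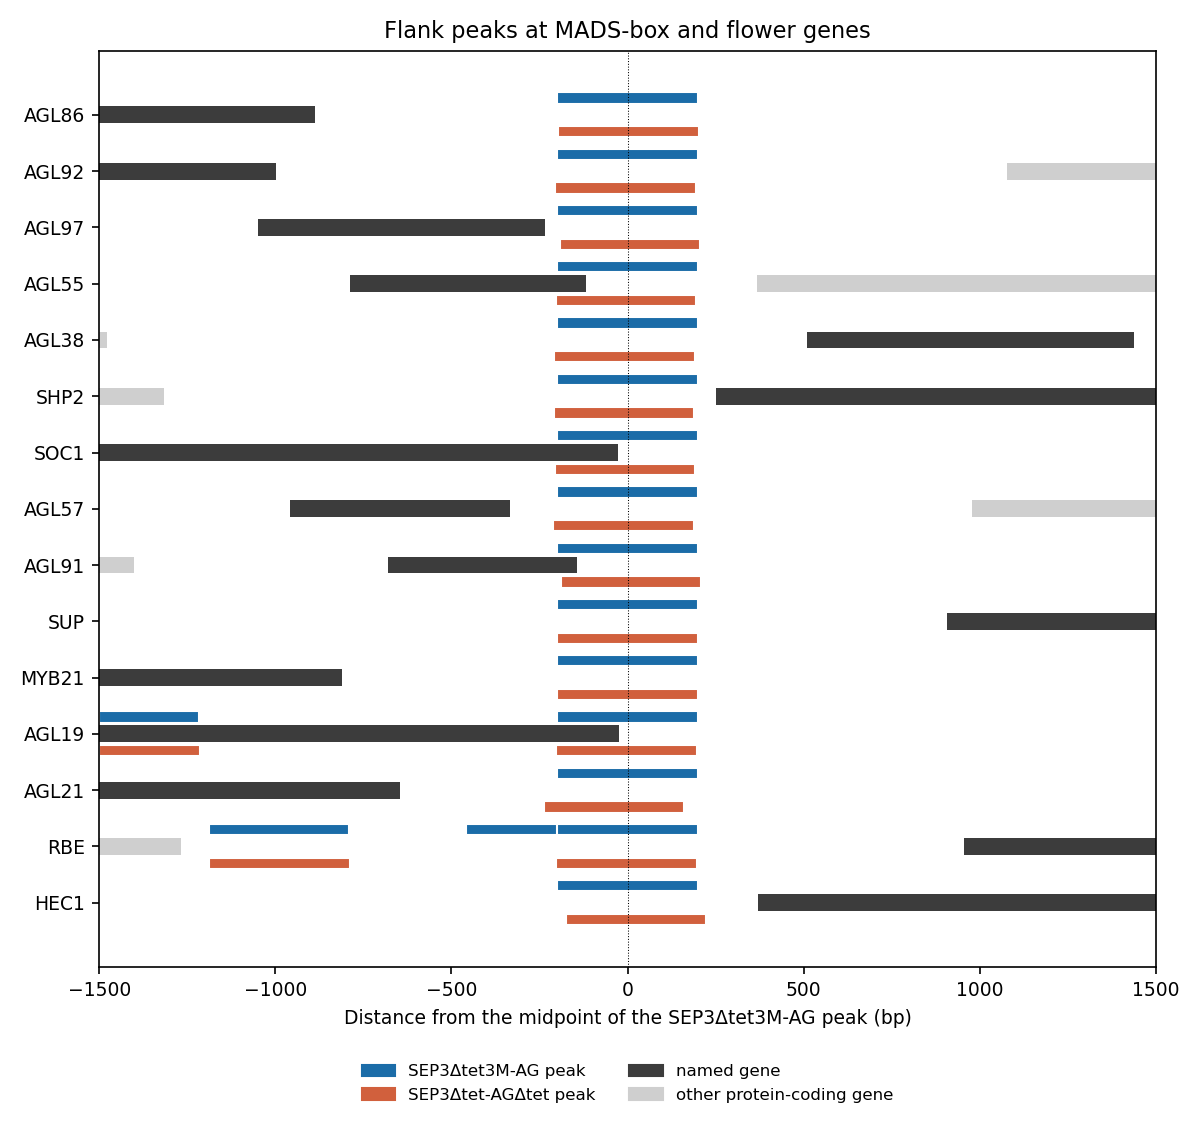
Peaks beside 11 MADS-box genes and 4 genes of flower development, each row centred on the midpoint of the SEP3Δtet3M-AG peak (x, distance in bp, 1500 bp shown to each side). Blue bars above the row are SEP3Δtet3M-AG peaks, orange bars below it SEP3Δtet-AGΔtet peaks, dark bars the named gene and grey bars other protein-coding genes, drawn without strand. The central bars of both lists nearly coincide in each row, and the gene edge lies 23 bp away at AGL19 and 998 bp away at AGL92. At RBE further peaks lie in the same space, and a SEP3Δtet3M-AG bar at -459 to -60 bp has no bar of the other list at the same spot.

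Genes of flower development outside the MADS-box family were represented by SUP, RBE, HEC1 and MYB21, 4 of the 27 in the list (14.8%, interval 4.19 to 33.7). SUP encodes a zinc finger protein at the boundary of stamens and carpels, and its peaks were 906 bp from the gene, in a space of 7667 bp between genes (chromosome 3, 8241150 to 8241549 with SEP3Δtet3M-AG and 8241151 to 8241550 with SEP3Δtet-AGΔtet). RBE, a related zinc finger gene needed for petals, had peaks 955 bp away (chromosome 5, 1826995 to 1827394 and 1826992 to 1827391). A further peak of both lists, at 1826006 to 1826405 with SEP3Δtet3M-AG, lay 989 bp from it in the same space between RBE and AT5G06060. Between these lay another SEP3Δtet3M-AG peak, at 1826736 to 1827135, which was left out because its nearest gene, AT5G06060, was 1010 bp away. MYB21, a jasmonate-responsive regulator of stamen filaments, had peaks 812 bp away (chromosome 3, 10311104 to 10311503 and 10311105 to 10311504). HEC1, a bHLH gene of the carpel and stigma, had the closest, 371 bp away (chromosome 5, 26765421 to 26765820 and 26765446 to 26765845). The peaks of SUP, RBE and MYB21 all lay over 800 bp out, so with a limit of 500 bp HEC1 alone stays (3.70%). Flank peaks of 1 list only also lay beside genes of this list. DAD1 and ARF6 were in reach of one with SEP3Δtet3M-AG only (7.41%, beside 0.714% of all genes). SPT and IND were in reach of one with SEP3Δtet-AGΔtet only (7.41%, beside 2.1%). Of the 18 genes in the flowering-time list none was in reach, and the exact interval reaches 18.5%. SOC1 and AGL19, counted among the MIKC-type genes, and FWA, counted among the homeobox genes, are not in that list but were in reach. The list also leaves out 2 other regulators that were noticed after their values were seen. FCA, an RNA-binding activator of flowering, had peaks 70 bp away (chromosome 4, 9214851 to 9215250 and 9214839 to 9215238), and ELF6, a histone demethylase gene, had peaks 475 bp away (chromosome 5, 1175267 to 1175666 and 1175274 to 1175673).

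Named transcription factor families together held 46 of their 937 genes in reach of a peak (4.91%, interval 3.62 to 6.49), beside 1.81% of all protein-coding genes and 1.71% of genes in none of the 24 families. For flank peaks of SEP3Δtet-AGΔtet only the numbers were 33 genes (3.52%, beside 2.1%), and for SEP3Δtet3M-AG only 9 genes (0.961%, beside 0.714%). Families were read from symbols and synonyms in the gene table, where 37.8% of protein-coding genes have a symbol other than their locus name, so unnamed members of a family were not counted. Among the genes in reach of a peak of both lists 38.2% have one.

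The MYB family had 9 of 147 genes in reach (6.12%, interval 2.84 to 11.3). The closest was MYR1 at 27 bp (chromosome 5, 6030629 to 6031028 with SEP3Δtet3M-AG, midpoints 17 bp apart). MYB110 lay 116 bp away (chromosome 3, 11009372 to 11009771, 1 bp apart) and RL6, a small MYB-like gene, 119 bp away (chromosome 1, 28243998 to 28244397, 3 bp apart). MEE3, at 186 bp, and MYB60, a regulator of stomatal opening, at 218 bp, followed. MYB14, MYB121, MYB118 and MYB21 lay between 330 and 812 bp.

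Zinc finger families had 7 of 149 genes in reach (4.70%, interval 1.91 to 9.44). IDD2, of the INDETERMINATE DOMAIN group of C2H2 proteins, lay 54 bp from its peak (chromosome 3, 18842907 to 18843306 with SEP3Δtet3M-AG, midpoints 4 bp apart). IDD1 and IDD12 lay 505 and 558 bp away. BBX13, a B-box gene, lay 78 bp away, HB34, a zinc finger homeodomain gene, 91 bp, and ZF14 353 bp. ZF14 was counted for its name and is known as a transporter of the MATE class, so 1 of the 7 is no transcription factor gene. SUP is the seventh. RBE is a zinc finger gene as well but has no such word in the table and was counted only in the flower list.

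Homeobox genes had 4 of 101 in reach (3.96%, interval 1.09 to 9.83). They are HB34, FWA at 214 bp, WOX8 at 428 bp and KNAT2 at 843 bp. FWA delays flowering when it is expressed outside the endosperm, and its peaks were at chromosome 4, 13037946 to 13038345 and 13037927 to 13038326. WOX8, which patterns the early embryo, had its SEP3Δtet3M-AG peak at chromosome 5, 18648258 to 18648657, 2 bp from the other, and a further SEP3Δtet-AGΔtet peak inside the gene. KNAT2, a meristem gene of the KNOX class with a role in carpels, had midpoints 1 bp apart (chromosome 1, 26575443 to 26575842).

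NF-Y genes, a family added after the values were seen, had 4 of 36 in reach (11.1%, interval 3.11 to 26.1). They were NF-YB8 at 87 bp (chromosome 2, 15577803 to 15578202, midpoints 6 bp apart), NF-YB13 at 146 bp, NF-YC6 at 418 bp and NF-YA4 at 547 bp, so that each of the 3 kinds of subunit is represented. NF-YB13 is the gene above whose peaks overlapped by only 59 bp.

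The AP2/ERF family had 4 of 78 genes in reach (5.13%, interval 1.41 to 12.6). CRF10 and CRF11, of the cytokinin response factor group, had peaks at 196 bp (chromosome 1, 25727697 to 25728096) and 658 bp (chromosome 3, 9474492 to 9474891). CBF1, an activator of cold-response genes, had one at 321 bp (chromosome 4, 13021259 to 13021658 with SEP3Δtet3M-AG and 13021265 to 13021664 with SEP3Δtet-AGΔtet). AIL7, a relative of AINTEGUMENTA in the meristem, had one at 408 bp (chromosome 5, 26184985 to 26185384). With SEP3Δtet-AGΔtet only, 4 other genes counted in the family were in reach, DREB26, ERF8, CRF4 and CRF8 (5.13%, beside 2.1% of all genes). BBM and ORA47, of the same family, were in reach of such peaks too. Their names lack the words searched, so they are not in this count. Members beside peaks of both lists can be missed in the same way.

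NAC genes in reach were 3 of 104 (2.88%, interval 0.599 to 8.20): RD26, a drought-induced gene, at 319 bp, NAC085 at 384 bp and NAC3 at 629 bp. The bHLH genes found by name included HEC1 and BNQ3, the latter at 315 bp (2 of 40, interval 0.611 to 16.9%), and other bHLH genes such as SPT were not among the 40. The bZIP family had bZIP48 alone, at 304 bp (1 of 56, 1.79%), and for it another gene, AT2G04137, was nearer. WRKY (72 genes), TCP (25) and SPL (16) had none in reach, which allows shares of up to 4.99%, 13.7% and 20.6%. Around the background of 1.81%, counts of this size cannot tell a family apart from other genes.

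**Figure D4:**
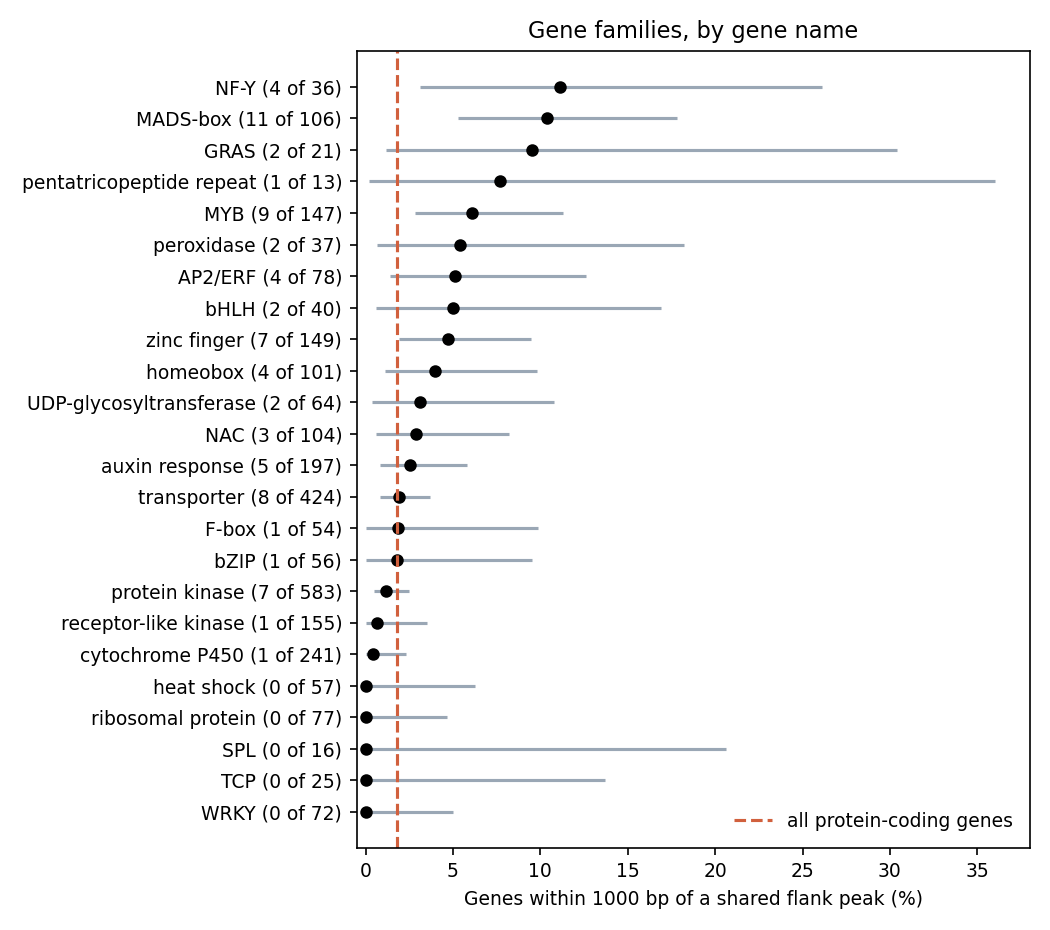
Share of each gene family, as read from gene names (x, percent), within 1000 bp of a flank peak of both lists. Grey lines are exact 95% intervals. After each name stands the number in reach of the number of genes counted in the family. The dashed line is the 1.81% of all protein-coding genes; the MADS-box share is 10.4% and the cytochrome P450 share 0.415%.

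Of families tied to a hormone, auxin-related genes were 5 of 197 (2.54%, interval 0.829 to 5.82), close to the background. They were NPY4 at 91 bp, YUC2, an enzyme of auxin synthesis, at 204 bp (chromosome 4, 7724074 to 7724473), and 3 genes of the SAUR family, AT2G28085 at 398 bp, AT1G75580 at 649 bp and AT5G53590 at 756 bp. GRAS genes by name were 2 of 21 (9.52%, interval 1.17 to 30.4), GAI and RGL1. The DELLA repressor GAI lay 706 bp from its peak (chromosome 1, 5148076 to 5148475 with SEP3Δtet3M-AG, midpoints 1 bp apart). RGL1, another DELLA gene, lay 966 bp away on chromosome 1 from the peak at 24750952 to 24751351 (1 bp apart), although AT1G66360 lay nearer, at 158 bp. A single gene outside these families, the gibberellin receptor gene GID1A, was chosen after its values were seen and lay 599 bp from its peak (chromosome 3, 1429564 to 1429963, 3 bp apart).

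Other families, of enzymes, transporters and housekeeping proteins, fell on both sides of the background. By name, peroxidase genes had 2 of 37 in reach (5.41%, interval 0.661 to 18.2) and UDP-glycosyltransferase genes 2 of 64 (3.12%, interval 0.381 to 10.8). In each family both genes so counted lay at the same peak, and genes without such a name were not counted. Transporter genes had 8 of 424 in reach (1.89%, interval 0.818 to 3.68) and genes of the protein kinase family 7 of 583 (1.20%, interval 0.484 to 2.46). That family was read from the word kinase alone, so it is not limited to protein kinases. Of 241 cytochrome P450 genes the only 1 was C4H, an enzyme of lignin and flavonoid synthesis, whose peaks lay 104 bp away between it and AT2G30480 (chromosome 2, 12993321 to 12993720). That is 0.415% (interval 0.0105 to 2.29). With SEP3Δtet-AGΔtet only, 11 cytochrome P450 genes were in reach of a flank peak (4.56%, beside 2.1% of all genes), among them CYP90D1, an enzyme of brassinosteroid synthesis. Among the 11, CYP81F3 was also in reach of a flank peak of SEP3Δtet3M-AG only (0.415%, beside 0.714% of all genes). Genes are counted here, and genes at the same peak count separately. The difference between C4H alone and the 11 was not tested. Ribosomal protein genes (77) and heat shock genes (57) had none, which allows shares of up to 4.68% and 6.27%.

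At 4 peaks, genes of 1 name series lay within reach together, a count made after the values were seen. No such count was made for other flank peaks or for all neighbouring genes. Without that background it cannot be read as a trait of these peaks. TPX2 lay 159 bp and TPX1, a second thioredoxin-dependent peroxidase gene, 772 bp from the peak at chromosome 1, 24558281 to 24558680. The methylesterase genes MES4 and MES19 lay 64 and 288 bp from that at chromosome 2, 10032779 to 10033178. The carboxylesterase genes CXE12 and CXE13 lay 164 and 250 bp from that at chromosome 3, 18038198 to 18038597. The glucosyltransferase genes UGT73B2 and UGT73B3 lay 42 and 290 bp from that at chromosome 4, 16344908 to 16345307. A gene had 2 of the 365 peaks within 1000 bp in 6 cases, AT2G25320, AT3G29455, AT3G44810, AT4G20150, AT4G20160 and AT4G31960, and no gene had 3.

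The flanking genes had a peak inside them about as often as other genes. Of the 497 genes, 15 (3.02%) had the midpoint of a SEP3Δtet3M-AG peak inside, beside 3.17% of all protein-coding genes. For SEP3Δtet-AGΔtet there were 19 (3.82%, beside 3.8%), and 10 had a peak of each list inside (2.01%, beside 2.15%). Across chromosomes the flank peaks were spread evenly. There were 91 on chromosome 1, 55 on chromosome 2, 78 on chromosome 3, 54 on chromosome 4 and 87 on chromosome 5. Per 1000 protein-coding genes the numbers ran from 12.7 to 14.3, and as a share of each chromosome's peaks found in both lists from 30.1 to 34.9%, with overlapping intervals.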

How the data were processed

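Peak positions were analysed, with 1 list per complex. Per the submitters' processing notes, the authors used Bowtie2, SAMtools and MACS2; no source used here states versions, settings, genome build or pooling of libraries. The deposited files give start and end in bp, with starts counted from 0; positions are printed counted from 1. The base at the midpoint was placed against 27444 protein-coding genes (37899 of every type) of the RefSeq table of TAIR10.1, with Python 3.11.15, NumPy 2.4.6, pandas 2.3.3 and SciPy 1.17.1. Overlap and distance were checked on simulated peaks at known distances. Gene lists (84 genes in 3 lists, all 84 found by locus) and 24 families, the latter by words in symbols and synonyms, were set against all protein-coding genes. Named are list genes, the closest 5 genes of each transcription factor and hormone family, the peaks at the limits of the rule, and others said to be noticed later. The peaks and lists were chosen with earlier results of these data known. Sides relative to transcription and CArG boxes were planned but not analysed, for want of strand and sequence.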

Additional observations from a re-analysis of the deposited data

How the results depend on the processing

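With 200 bp of overlap required, midpoints within 100 bp, genes of every type, or rows of the SEP3Δtet-AGΔtet list counted, the number of peaks ran from 357 to 399 and no median or share left the interval of its reported value. With the whole peak outside genes, 212 of the 365 were left and the median distance to a gene rose to 442 bp, since peaks within 200 bp of a gene touch it. The limit of the flank set the median distance by construction, at 173 bp for 500 bp and 316 bp for 1500 bp, with 272 and 421 peaks. At 500 bp the share of flower genes was 3.70% against 14.8%, as SUP, RBE and MYB21 lie farther out. The share of all MADS-box genes by name, added after seeing the data, ranged from 6.60 to 10.4% over 8 alternatives, and that of the MIKC-type list from 5.13 to 10.3%. Assigning the nearest gene only changed none of these 3 shares. Other choices meant for the side of the gene and for CArG boxes were not run, for want of strand and sequence. No paired analysis was possible because each complex has 1 list. Depth, scores, caller settings and mappability are unknown, which limits how far presence in 1 list only can be read.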

Other observations

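Genes that do not encode proteins lay at some of the same peaks. The midpoint of 13 of the 365 peaks fell inside a gene of another type (3.56%, interval 1.91 to 6.01), beside 6.65% of all flank bases. Among them, the peak beside CBF1 lay inside AT4G03125, a transcribed RNA gene of 1263 bp, that beside IDD1 inside the long noncoding RNA gene AT5G09695, and that beside MYR1 inside AT5G18245, also a long noncoding RNA gene, of 5323 bp. Of genes for small RNAs, 5 tRNA, 2 snoRNA, 2 snRNA and 1 microRNA gene lay within 1000 bp of a peak. No share over all genes of these types is given, so the counts cannot be set against a background. The microRNA gene was MIR8167c, 542 bp from the peak beside IDD2.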
